A study of Homo sapiens with 6 samples.

Results

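The nuclear genes for the subunits of respiratory complexes II, III, IV and V were examined by RNA sequencing in the human liposarcoma cell line SW872-S. The members were all protein-coding entries of the expression table named SDHA, SDHB, SDHC, SDHD or CYC1, or with a symbol beginning in UQCR, COX4, COX5, COX6, COX7, COX8, ATP5F1, ATP5M, ATP5P or ATP5IF1, and without a hyphen. This gave 50 of 60843 genes, of which 4 belong to complex II, 10 to complex III, 17 to complex IV and 19 to complex V. The choice used names only and no measured value. A group of 3 libraries, called TP53INP2_OE, came from cells with a plasmid that overexpresses TP53INP2, which encodes a protein of autophagosome formation, and 3 libraries, called NC, were the control. The labels name the same line, tissue and culture conditions for all 6 libraries and give no further allele or agent. They do not say whether the plasmid line was a pool or a clone, and the design text mentions 2 cell sources without saying what they are, so that any difference between the sources cannot be told apart from the plasmid. The labels do not place the 3 libraries of a group in separate cultures, and the p-values therefore measure only how these libraries vary, and that variation may be technical.

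The respiratory chain passes electrons from metabolic substrates to oxygen in the inner mitochondrial membrane, and complex V uses the resulting proton gradient to make ATP. Complex II oxidises succinate, complex III passes electrons from ubiquinol to cytochrome c, and complex IV, cytochrome c oxidase, hands them to oxygen. Complex II is made of nuclear gene products only, whereas complexes III, IV and V each combine nuclear subunits with a few proteins encoded in mitochondrial DNA (mtDNA), so that their assembly draws on both genomes. Tumour cells vary in how far they rely on this machinery as against glycolysis.

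The values behind the table corresponded to 16038062 to 17607612 reads assigned to genes per library, and the members took 0.359% to 0.402% of them. TP53INP2 itself was at 10.6, 9.45 and 9.67 FPKM (fragments per kilobase of gene, scaled by library size) in NC and at 18.9, 23.4 and 27.1 FPKM in TP53INP2_OE (log2 fold change 1.13, adjusted p = 0.00282). Plasmid and chromosomal reads are summed in these values. The connective tissue label was checked on 9 mesenchymal markers, of which 6 averaged at least 1 FPKM, led by VIM and FN1, while COL1A2, COL3A1 and THY1 stayed at or below 0.291 FPKM in each library. The mesenchymal markers summed to between 1561 and 1641 FPKM in NC and between 1652 and 1731 FPKM in TP53INP2_OE. Of 5 adipocyte markers, ADIPOQ, LEP and FABP4 had no read in any library. PLIN1 was at 0.0323, 0.0149 and 0 FPKM in NC and at 0.114, 0.123 and 0.0650 FPKM in TP53INP2_OE. CIDEC was above 0 only in TP53INP2_OE replicate 1 (0.0321 FPKM), and both were too low to be tested. Epithelial and immune markers summed to at most 1.27 and 0.534 FPKM. Of 5 endothelial markers 3 averaged at least 1 FPKM, and the list summed to 37.0 to 41.8 FPKM in NC and 34.2 to 35.9 FPKM in TP53INP2_OE. Its part in the results was not tested.

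Of the 50 members, 44 averaged at least 0.5 FPKM and were tested, 17 fell in TP53INP2_OE, 1 rose and 26 did not pass (limma on log2(FPKM + 1), Benjamini-Hochberg adjustment over all 14791 tested genes, threshold 0.05). Over all tested genes 18.6% were lower and 16.4% higher, against 38.6% and 2.27% of the tested members. The members are all protein-coding, and of the 11278 tested protein-coding genes 23.0% were lower and 19.8% higher. The median log2 fold change of the tested members was -0.123, beside 0.003 for all tested genes. In 22 members every TP53INP2_OE library lay below every NC library, and in 4 every one lay above, where 25.6% and 25.2% of all tested genes did so. Of the 11278 tested protein-coding genes, 3476 lay entirely below and 3335 entirely above. The falls were in complex IV (6 of 12 tested), complex III (4 of 10) and complex V (7 of 18), and none of the 4 complex II subunits passed. In RNA from whole cultures, fewer cells that express a gene and less RNA per cell cannot be told apart. FPKM was computed by the length of all exons of a gene together, which was 1.61 times the longest transcript for the median member (0.769 to 2.94), so levels of different subunits are only roughly comparable.

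**Figure D1:**
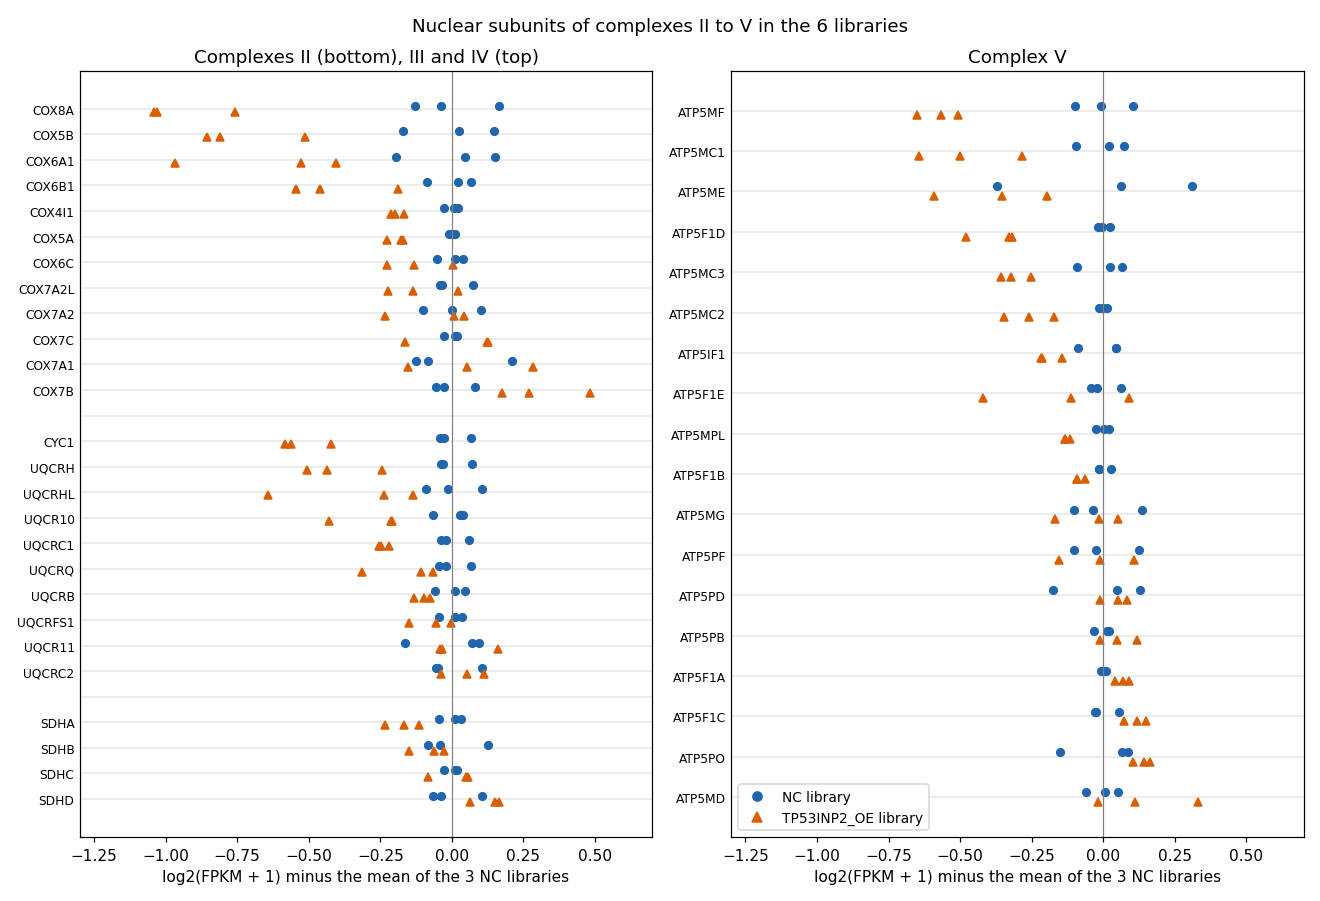
Level of each tested subunit in each library, as log2(FPKM + 1) minus the mean of the 3 NC libraries, with 1 line per gene, circles for NC and triangles for TP53INP2_OE. The triangles of COX8A, COX5B, COX6A1, CYC1, ATP5MF and ATP5MC1 lie to the left of all their circles, and those of COX7B to the right. In complex II the triangles of SDHA lie to the left of its circles, and those of SDHB, SDHC and SDHD overlap theirs.

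Complex II showed no change that passed the test. Its level summed over the 4 genes was 69.6 ± 2.91 FPKM in NC and 70.0 ± 1.57 FPKM in TP53INP2_OE (SD, n = 3 each, as for all means below). SDHB, the iron-sulphur subunit and the highest of the 4, was at 30.3, 35.2 and 31.2 FPKM in NC and at 31.5, 28.8 and 30.7 FPKM in TP53INP2_OE, and the groups overlapped (log2 fold change -0.08, 95% confidence interval -0.23 to 0.07, adjusted p = 0.373). SDHC and SDHD, which anchor the enzyme in the membrane, had log2 fold changes of 0.01 and 0.13 (adjusted p = 0.936 and 0.122), and SDHD passed without NC replicate 3 (0.18, adjusted p = 0.0395). SDHA, the flavoprotein that binds succinate, was at 2.67, 2.86 and 2.81 FPKM in NC and at 2.21, 2.37 and 2.49 FPKM in TP53INP2_OE. Its groups did not overlap, but the difference missed the threshold (log2 fold change -0.17, adjusted p = 0.0719), and it passed among protein-coding genes alone (adjusted p = 0.0470) and with voom on the reads behind the values (adjusted p = 0.0356). SDHA shares 19.7% of its 50-base stretches with other genes, and its pseudogenes held 88.2% as many reads as SDHA itself, so its reads may be divided among copies.

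In complex III, 4 of 10 subunits fell and none rose, and the level summed over the complex went from 333 ± 4.96 to 272 ± 13.1 FPKM. Without correction for GC content the change was largest in CYC1, cytochrome c1, the haem protein that hands electrons to cytochrome c. CYC1 was at 76.5, 71.6 and 71.0 FPKM in NC and at 54.2, 48.4 and 49.1 FPKM in TP53INP2_OE (log2 fold change -0.52, SE 0.05, adjusted p = 0.00276). The NC libraries were all above the TP53INP2_OE libraries, with a gap wider than the spread inside either group. After GC and length correction the fall of CYC1 was -0.20, less than those of UQCRH (-0.35), UQCRB (-0.31) and UQCR10 (-0.28), all 4 called. UQCRFS1, the Rieske iron-sulphur protein and the other nuclear catalytic subunit, overlapped between the groups at 23.9 to 27.3 FPKM (log2 fold change -0.07, adjusted p = 0.305).

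The small subunit UQCRH, the hinge protein beside cytochrome c1, was the highest member of complex III. It stood at 95.9, 95.6 and 103 FPKM in NC and at 82.8, 68.7 and 72.1 FPKM in TP53INP2_OE (log2 fold change -0.40, SE 0.07, adjusted p = 0.00764). UQCRHL, a second gene for a hinge protein, was at 3.10, 2.77 and 2.57 FPKM in NC and at 2.47, 1.44 and 2.23 FPKM in TP53INP2_OE, without passing (log2 fold change -0.34, adjusted p = 0.104), though it passed among protein-coding genes alone (0.0349) and with voom (0.0432). UQCRH shares 29.4% of its 50-base stretches with UQCRHL, so these 2 rows are not independent. UQCR10, a small membrane subunit, fell from 18.3, 18.5 and 17.1 FPKM to 15.4, 13.1 and 15.4 FPKM (log2 fold change -0.28, SE 0.07, adjusted p = 0.0210). It was no longer called without NC replicate 1 (adjusted p = 0.0714) or NC replicate 2 (0.0710).

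Of the core proteins of complex III, which face the matrix, 1 fell. UQCRC1 went from 42.5, 39.6 and 40.0 FPKM to 34.1, 34.7 and 34.0 FPKM (log2 fold change -0.24, SE 0.04, adjusted p = 0.00528), whereas UQCRC2 overlapped at 25.0 to 28.2 FPKM (0.04, adjusted p = 0.620). The UQCRC1 fall was not kept after correction for GC content and length, described further on, at 0.007 on the log2 scale (adjusted p = 0.937). The difference between the 2 genes was not tested. The remaining small subunits did not pass, with log2 fold changes of -0.16 for UQCRQ, -0.10 for UQCRB and 0.03 for UQCR11. UQCRQ was called lower with voom (-0.163, adjusted p = 0.0459).

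Complex IV held the largest falls of all members, and its summed level went from 446 ± 16.6 to 335 ± 10.4 FPKM. COX8A, the ubiquitous isoform of a small membrane subunit (chromosome 11, positions 63974620 to 63976543, GRCh38), was at 142, 123 and 116 FPKM in NC and at 61.4, 61.1 and 74.5 FPKM in TP53INP2_OE. The ratio of the means was 0.517 (log2 fold change -0.94, SE 0.10, adjusted p = 0.00282). Every NC library exceeded every TP53INP2_OE library by a wide margin. Its testis isoform COX8C had no read in any library.

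COX5B, a zinc-binding subunit on the matrix side (chromosome 2, positions 97646062 to 97648383), was at 49.7, 45.6 and 39.7 FPKM in NC and at 31.1, 24.3 and 25.1 FPKM in TP53INP2_OE (log2 fold change -0.73, SE 0.11, adjusted p = 0.00514). COX5A, its matrix-side neighbour, fell by less, from 64.7, 63.7 and 64.2 FPKM to 56.7, 54.6 and 56.9 FPKM (log2 fold change -0.19, SE 0.03, adjusted p = 0.00560). COX4I1, the ubiquitous isoform of the subunit through which ATP is thought to regulate the enzyme, was at 36.6, 38.0 and 37.5 FPKM and then at 33.2, 32.1 and 32.4 FPKM (log2 fold change -0.19, SE 0.03, adjusted p = 0.00611). All 3 tested genes of this group thus fell, and none of them overlapped between the groups. Of all tested genes 18.6% fell and 25.6% lay entirely below in TP53INP2_OE. COX4I2, the isoform known from lung and low oxygen, had no read in any library.

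COX6A1, the non-muscle isoform of subunit VIa (chromosome 12, positions 120438090 to 120440737), was at 29.8, 27.6 and 23.2 FPKM in NC and at 18.2, 13.2 and 19.9 FPKM in TP53INP2_OE (log2 fold change -0.63, SE 0.16, adjusted p = 0.0214). Without NC replicate 1 or NC replicate 2 it was not called (adjusted p = 0.0737 and 0.0671), with log2 fold changes of -0.56 and -0.61. Of its 50-base stretches 34.6% also occur in the pseudogene COX6A1P2, whose row held reads amounting to 9.20% of those of COX6A1. COX6B1, which faces the intermembrane space, went from 43.4, 46.8 and 48.3 FPKM to 40.4, 33.2 and 31.3 FPKM (log2 fold change -0.40, SE 0.09, adjusted p = 0.0186). Its call was lost without NC replicate 2 (adjusted p = 0.0603), NC replicate 3 (0.0575) or TP53INP2_OE replicate 2 (0.0604), and after GC and length correction (log2 fold change -0.22, adjusted p = 0.185). COX6C was within overlapping ranges (10.6 to 12.9 FPKM, log2 fold change -0.12, adjusted p = 0.208).

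The isoforms of COX6A and COX6B that are known from other tissues were at or near 0. The muscle isoform COX6A2 had no read. The testis isoform COX6B2 was too low to be tested, at 0.115, 0.182 and 0.106 FPKM in NC and 0.282, 0.360 and 0.481 FPKM in TP53INP2_OE, from 7 to 29 reads per library. The TP53INP2_OE libraries were the higher ones for COX6B2.

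COX7B, a small subunit needed for assembly of the enzyme (X chromosome, positions 77899440 to 77907376), was the single member that rose. It was at 13.2, 13.4 and 14.6 FPKM in NC and at 16.7, 19.6 and 15.6 FPKM in TP53INP2_OE (log2 fold change 0.31, SE 0.08, adjusted p = 0.0291). The lowest TP53INP2_OE library lay only slightly above the highest NC library, and the call was lost without NC replicate 1 (0.28, adjusted p = 0.0945), NC replicate 2 (0.30, adjusted p = 0.0874) or TP53INP2_OE replicate 1 (0.33, adjusted p = 0.0532). It was also lost after GC and length correction (0.17, adjusted p = 0.180). COX7B2, its testis paralog, had no read.

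The other COX7 genes did not pass. COX7A2, the isoform of subunit VIIa found in most tissues, was at 23.1, 26.7 and 24.8 FPKM in NC and at 25.0, 25.6 and 21.0 FPKM in TP53INP2_OE (log2 fold change -0.06, adjusted p = 0.622). COX7A2L, a relative that ties complexes III and IV into supercomplexes, was at 9.41, 10.3 and 9.46 FPKM and at 9.88, 8.19 and 8.76 FPKM (-0.11, adjusted p = 0.273). COX7A2L was called lower when the correction used the GC content of the longest coding transcript (-0.235, adjusted p = 0.0468). The heart and muscle isoform COX7A1 was at 0.628, 0.675 and 1.05 FPKM and at 1.16, 0.596 and 0.842 FPKM, from 6 to 11 reads per library (log2 fold change 0.06, 95% confidence interval -0.31 to 0.43, adjusted p = 0.798), and was called higher with GC content, length and coding length corrected (0.44, adjusted p = 0.0316). COX7C, at 33.7 to 41.4 FPKM, overlapped between the groups (log2 fold change 0.03, adjusted p = 0.820).

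To show what lies before the genes with the largest falls and before the gene that rose, 150 bases upstream of COX8A (chr11:63974470-63974619), COX5B (chr2:97645912-97646061) and COX7B (chrX:77899290-77899439) follow, from RefSeq promoters on GRCh38.p14, all on the plus strand and ending before the annotated start. Capitals mark matches on either strand to the core letters bound by NRF-1 (TGCGCA), ETS factors such as GABPA (CCGGAA), YY1 (AAGATGG) and SP1 (GGGCGG), and to the TATA box (TATAAA).
COX8A: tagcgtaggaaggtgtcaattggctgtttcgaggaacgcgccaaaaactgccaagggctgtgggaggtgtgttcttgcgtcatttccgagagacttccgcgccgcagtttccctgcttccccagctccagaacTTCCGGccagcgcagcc
COX5B: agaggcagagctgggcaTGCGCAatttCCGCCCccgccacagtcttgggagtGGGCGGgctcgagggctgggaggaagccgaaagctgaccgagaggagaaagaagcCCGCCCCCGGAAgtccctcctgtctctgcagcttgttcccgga
COX7B: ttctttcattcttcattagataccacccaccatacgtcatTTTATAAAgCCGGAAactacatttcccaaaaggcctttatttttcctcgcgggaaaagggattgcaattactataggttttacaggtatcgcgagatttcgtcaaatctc
The stretch before COX7B is 38.7% G and C, against 58.7% for COX8A and 65.3% for COX5B. COX7B has overlapping TATA matches on both strands followed by an ETS core, COX5B an NRF-1 core, SP1 boxes and an ETS core, and COX8A an ETS core alone.

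Of the members, 38 matched a RefSeq promoter of 300 bases (250 before the start and 50 after it), and 34 of these were tested genes. An ETS core was present in 21 of the 34, against 31.3% of the promoters of tested protein-coding genes and 17.6% of all promoters of the same length. An NRF-1 core was present in 9 (14.3% and 8.42%), a YY1 core in 9 (8.11% and 6.06%), an SP1 box in 21 (71.8% and 44.6%) and a TATA box in 3 (5.21% and 11.9%). Among the 13 members that fell and have a promoter, 6 held an ETS core, 3 an NRF-1 core, 1 a YY1 core and 9 an SP1 box. Among the other 21, 15 held an ETS core, 6 an NRF-1 core, 8 a YY1 core and 12 an SP1 box. These matches describe letters in a window and were not tested against the fold changes.

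In complex V, 7 of 18 tested subunits fell and none rose, and the summed level was 742 ± 4.51 FPKM in NC and 704 ± 16.7 FPKM in TP53INP2_OE. Of the falls, 1 lay in the catalytic head F1, 3 in the ring of subunit c, 2 in the accessory membrane subunits and 1 in the inhibitor. Within F1 the gene that passed was ATP5F1D. This subunit of the central stalk was at 45.8, 45 and 44.5 FPKM in NC and at 36.0, 32.1 and 35.7 FPKM in TP53INP2_OE (log2 fold change -0.38, SE 0.05, adjusted p = 0.00337). Corrected for GC content and length, the change was -0.06 on the log2 scale (adjusted p = 0.204).

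ATP5F1B, the catalytic beta subunit and the highest of all members, was at 348, 339 and 339 FPKM in NC and at 327, 321 and 321 FPKM in TP53INP2_OE. The groups did not overlap, yet the difference missed the threshold (log2 fold change -0.08, 95% confidence interval -0.15 to -0.01, adjusted p = 0.0745), and its sign turned under quantile normalization (0.07). ATP5F1A, the alpha subunit, and ATP5F1C, the gamma subunit that turns inside the head, stood higher in each TP53INP2_OE library than in any NC library without passing (log2 fold changes 0.07 and 0.11, adjusted p = 0.130 and 0.0615). ATP5F1A passed under quantile normalization (0.12, adjusted p = 0.0186). ATP5F1C passed in 5 of the alternative settings, with adjusted p-values of 0.0290 to 0.0493, one of them being without NC replicate 3 (0.0471). ATP5F1E, the smallest subunit of F1, overlapped at 13.1 to 19.0 FPKM (-0.15, adjusted p = 0.392). ATP5F1E was called lower when the correction used the GC content of the longest coding transcript (-0.364, adjusted p = 0.0247).

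All 3 genes of subunit c, which forms the rotating ring that protons drive, fell. ATP5MC1 (chromosome 17, positions 48892765 to 48895871) was at 13.3, 11.7 and 12.8 FPKM in NC and at 10.2, 7.70 and 8.61 FPKM in TP53INP2_OE (log2 fold change -0.48, SE 0.10, adjusted p = 0.0108). ATP5MC2 (chromosome 12, positions 53632726 to 53677408) was at 21.8, 21.6 and 22.1 FPKM and at 19.3, 18.1 and 16.9 FPKM (-0.26, SE 0.05, adjusted p = 0.00951). ATP5MC3 (chromosome 2, positions 175176258 to 175184607) was at 15.1, 16.4 and 16.9 FPKM and at 13.4, 12.4 and 12.7 FPKM (-0.31, SE 0.05, adjusted p = 0.00673). None of the 3 overlapped between the groups, where 18.6% of all tested genes fell and 25.6% lay entirely below in TP53INP2_OE. The summed level of the ring genes went from 50.6 ± 1.05 to 39.7 ± 2.65 FPKM. ATP5MC2 was not called when the correction used the GC content of the longest coding transcript (-0.06, adjusted p = 0.418), a setting chosen after seeing the data.

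The 3 genes carry the same mature protein in different letters, which bears on whether their reads can be told apart. The last 90 coding bases before the stop codon, spliced from GENCODE 29 transcripts, are shown with the positions at which the genes differ in capitals.
ATP5MC1: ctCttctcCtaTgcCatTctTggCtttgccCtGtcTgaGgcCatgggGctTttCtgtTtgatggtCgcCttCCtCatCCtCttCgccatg
ATP5MC2: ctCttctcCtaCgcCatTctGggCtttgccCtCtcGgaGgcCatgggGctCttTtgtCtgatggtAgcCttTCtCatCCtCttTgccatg
ATP5MC3: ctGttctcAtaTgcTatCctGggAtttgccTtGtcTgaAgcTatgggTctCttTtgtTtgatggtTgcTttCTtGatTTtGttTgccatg
Over the last 75 codons all 75 encode the same residue in each pair of genes, while 25 of 225 bases differ between ATP5MC1 and ATP5MC2 and 42 of 225 between ATP5MC3 and each of the others. The longest run of identical bases between any 2 of them is 17, and no 50-base stretch of one occurs in another.

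Of the peripheral stalk, which holds the head still against the turning ring, none of the 4 subunits passed. ATP5PB, ATP5PD, ATP5PF and ATP5PO (subunits b and d, the coupling factor and the oligomycin sensitivity protein) had log2 fold changes of 0.05, 0.04, -0.02 and 0.14, with adjusted p-values of 0.380, 0.731, 0.888 and 0.207. Their summed level was 75.4 ± 2.40 FPKM in NC and 77.6 ± 3.58 FPKM in TP53INP2_OE. That the ring genes and the stalk genes differ in their response was not tested.

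Among the accessory membrane subunits, ATP5MF, subunit f at the base of the dimer (chromosome 7, positions 99448475 to 99466331), was at 24.4, 21.1 and 22.5 FPKM in NC and at 15.6, 14.1 and 15.0 FPKM in TP53INP2_OE (log2 fold change -0.57, SE 0.06, adjusted p = 0.00284). ATP5MPL, a small proteolipid, went from 10.5, 10.2 and 10.4 FPKM to 9.48, 9.34 and 9.35 FPKM (-0.13, SE 0.04, adjusted p = 0.0360), a fall that no longer passed when any 1 of the 6 libraries was left out (adjusted p = 0.0632 to 0.117). ATP5ME, subunit e, was at 4.94, 4.0 and 2.71 FPKM and at 3.18, 2.75 and 2.18 FPKM with overlap (-0.38, adjusted p = 0.154), and passed without NC replicate 3 (-0.57, adjusted p = 0.0336). ATP5MG and ATP5MD did not pass (-0.04 and 0.14), and ATP5MGL, a relative of ATP5MG, was not tested at 0 to 3 reads per library.

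ATP5IF1, the inhibitor that blocks ATP hydrolysis when the gradient collapses, was at 13.2, 13.2 and 12 FPKM in NC and at 10.9, 11.5 and 10.9 FPKM in TP53INP2_OE (log2 fold change -0.19, SE 0.05, adjusted p = 0.0290). The highest TP53INP2_OE library was just below the lowest NC library. The call was lost without NC replicate 1 (adjusted p = 0.0986), NC replicate 2 (0.0960), TP53INP2_OE replicate 1 (0.0730) or TP53INP2_OE replicate 3 (0.0814), and after GC and length correction (0.102).

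**Figure D2:**
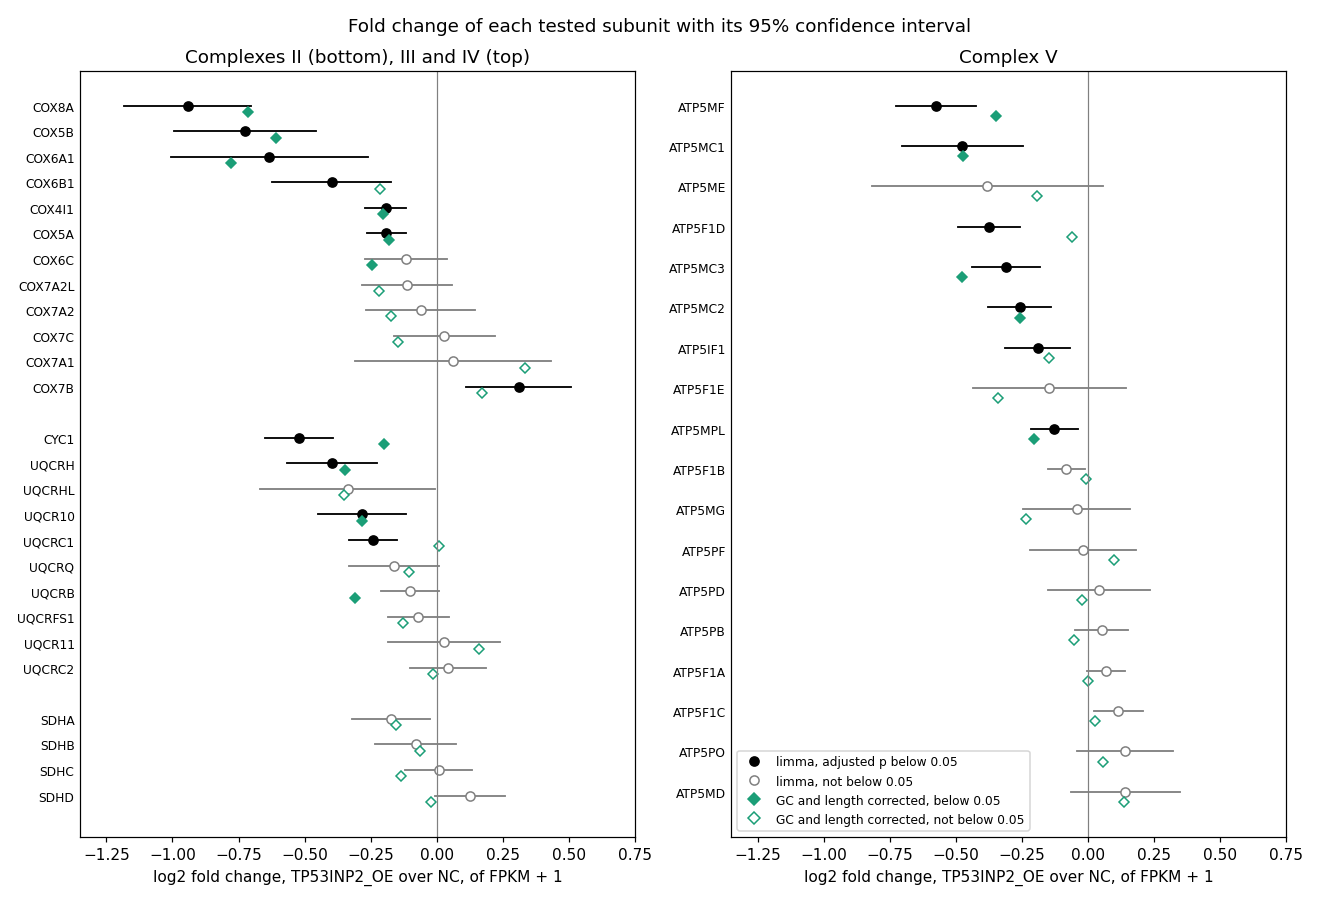
Log2 fold change of each tested subunit (TP53INP2_OE over NC, FPKM + 1) with its 95% confidence interval, filled circles where the adjusted p was below 0.05, and diamonds for the value after GC and length correction. COX8A at -0.94 and COX5B at -0.73 are farthest to the left, COX7B at 0.31 is the single filled circle above 0, and the diamonds of UQCRC1 and ATP5F1D lie close to 0.

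The mtDNA-encoded partners of these subunits were compared with them, since complexes III, IV and V need both. Of the 6 partner genes 5 rose and none fell, beside 16.4% and 18.6% of all tested genes, although 3 of the 5, MT-CO1, MT-CO2 and MT-ATP6, had a log2 fold change of 0 under quantile normalization, which gives genes of the same rank the same value. MT-CO1, the haem and copper subunit of complex IV, went from 5377 ± 78.6 to 6615 ± 293 FPKM (0.30 on the log2 scale, adjusted p = 0.00520). MT-CYB, cytochrome b of complex III, went from 1537 ± 56.6 to 1818 ± 95.1 FPKM (0.24, adjusted p = 0.0127), and MT-CO3 of complex IV did not pass (-0.04, adjusted p = 0.511). MT-ATP8 of complex V had the largest change (0.69, adjusted p = 0.0334) and lost its call without NC replicate 1 (0.102), NC replicate 2 (0.101), TP53INP2_OE replicate 2 (0.0913) or TP53INP2_OE replicate 3 (0.0506). MT-ATP6 (0.24, adjusted p = 0.0176) lost its call without NC replicate 1 (0.0503) or NC replicate 2 (0.0591). Both also lost it after GC and length correction (adjusted p = 0.108 for MT-ATP8 and 0.0888 for MT-ATP6) and with the replicate block (0.0519 and 0.0528). With no filter on low genes none of the 5 was called (adjusted p = 0.103 to 0.630).

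The ratio of mtDNA-encoded to nuclear RNA for the same complex, as summed FPKM, was 4.61 ± 0.103 in NC and 6.68 ± 0.50 in TP53INP2_OE for complex III. For complex IV it was 27.1 ± 1.62 and 43.7 ± 3.28, and for complex V it was 4.07 ± 0.152 and 5.11 ± 0.307. In all 3 complexes each TP53INP2_OE library had a higher ratio than any NC library. Taken as single genes rather than ratios, 25.2% of all tested genes lay entirely above in TP53INP2_OE. The ratios combine the changes given above, use values not corrected for GC content, and were not tested. A sum is set mostly by its highest genes: in NC, COX8A averaged 127 of the 446 FPKM on the nuclear side of complex IV, and ATP5F1B 342 of the 742 FPKM of complex V.

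**Figure D3:**
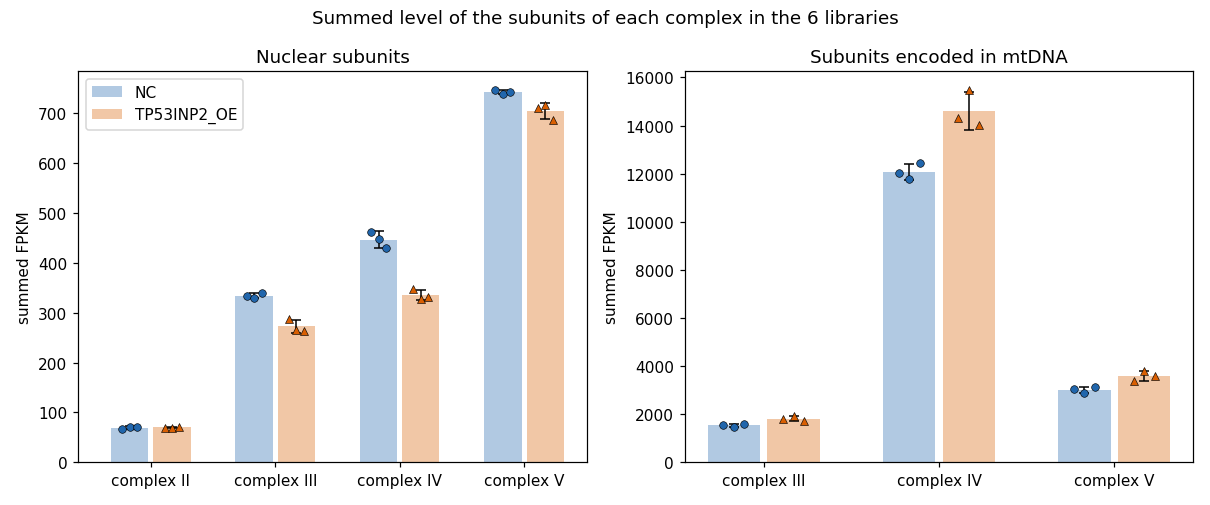
Summed FPKM of the nuclear subunits (left) and of the mtDNA-encoded subunits (right) of each complex, with bars for the mean of 3 libraries, error bars for the SD and points for the libraries. Complex II stays near 70 FPKM in both groups, complex IV goes from 446 to 335 FPKM on the nuclear side, and the mtDNA-encoded sums are higher in TP53INP2_OE.

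The factors that assemble the complexes and the carriers around them included genes called in both directions. Of 48 tested nuclear genes in these lists 3 rose and 10 fell (6.25% and 20.8%), beside the shares of 16.4% and 18.6% over all tested genes. The share that fell was thus near that of all genes. None of 4 complex II assembly factors passed, and the most expressed were SDHAF3 (log2 fold change 0.08, adjusted p = 0.579) and SDHAF1 (-0.22, adjusted p = 0.202). Of 6 complex III factors UQCC3, which stabilises cytochrome b, fell from 4.30 ± 0.896 to 2.15 ± 0.527 FPKM (-0.75, adjusted p = 0.0136), and LYRM7, the chaperone of the Rieske protein, rose from 13.5 ± 0.571 to 16.6 ± 1.89 FPKM (0.28, adjusted p = 0.0322). UQCC3 was not called without NC replicate 1 (0.0508) or 2 (0.0503), and LYRM7 was not called without any 1 of the NC replicates (0.0654 to 0.101), with no filter (0.0870) or with the replicate block (0.0667). After GC and length correction neither was called, with UQCC3 at -0.57 (adjusted p = 0.0570) and LYRM7 at 0.07 (adjusted p = 0.527).

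Of 28 complex IV assembly genes 25 were tested, of which 5 fell and 2 rose (20% and 8%, beside 18.6% and 16.4% of all tested genes). HIGD2A, an assembly factor of complex IV, fell from 21.2 ± 1.41 to 13.8 ± 1.46 FPKM (-0.59 on the log2 scale, adjusted p = 0.00390), COX14 fell by 0.57 (adjusted p = 0.00685), TACO1, which activates translation of MT-CO1, by 0.44 (adjusted p = 0.0370) and TMEM177 by 0.40 (adjusted p = 0.0155). The fifth was SURF1 (-0.27). HIGD1A, a paralog of HIGD2A, rose from 18.2 ± 0.466 to 23.3 ± 1.35 FPKM (0.33, adjusted p = 0.00440), and LRPPRC, which stabilises mtDNA-encoded messengers, rose by 0.31 (adjusted p = 0.00527). TACO1 lost its call without any 1 of the NC replicates (0.0687 to 0.112) or TP53INP2_OE replicate 2 (0.0846), TMEM177 without NC replicate 1 (0.0580), and SURF1 without NC replicate 2 or 3 or TP53INP2_OE replicate 2 or 3 (0.0685 to 0.115). GC and length correction ended the calls of TACO1 (-0.32, adjusted p = 0.173), TMEM177 (-0.19, adjusted p = 0.183) and SURF1 (-0.06, adjusted p = 0.692).

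Of 6 complex V assembly genes 5 were tested and none passed, with TMEM70 at 0.14 (adjusted p = 0.147) and ATPAF1 at 0.004 (adjusted p = 0.973). Of 8 carriers 4 fell (50%), beside 18.6% of all tested genes. After GC and length correction 3 carriers were lower, beside 5.88% of genes. SLC25A6, an ADP/ATP exchanger that exports the product of complex V, fell from 178 ± 2.34 to 112 ± 9.13 FPKM (-0.66, adjusted p = 0.00239). Its paralog SLC25A5 fell by 0.24 (adjusted p = 0.00482), SLC25A3, the phosphate carrier, by 0.11 (adjusted p = 0.0328) and DHODH, which feeds electrons to ubiquinone, by 0.34 (adjusted p = 0.0231). SLC25A3 lost its call without any 1 library (0.0595 to 0.116), with TPM (0.0571) and under quantile normalization (0.197), and DHODH without NC replicate 1 or 2 or TP53INP2_OE replicate 2 or 3 (0.0645 to 0.0799). DHODH was also not called with no filter (0.0706) or after GC and length correction (-0.25, adjusted p = 0.0905). CYCS, cytochrome c itself, was not called (log2 fold change 0.10).

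Fold changes in these libraries followed the GC content of the transcripts, and the members' values were read against that. GC content was taken from the longest transcript of any type. For some members that is not a protein-coding transcript. COX6A1, ATP5MC1, ATP5MC2, COX4I1 and UQCRH, all called lower, are among them. Their GC bands below could differ by coding transcript, which was not counted. Across 11254 nuclear protein-coding genes the rank correlation of log2 fold change with GC content (Spearman's rho) was -0.783, and across the 44 tested members it was -0.435, with genes as the points, which share the 6 libraries and are no replicates. Of 8 tested members above 55% GC 6 fell (CYC1, UQCRC1, COX6B1, COX8A, ATP5F1D and ATP5MF), where 57.8% of nuclear protein-coding genes in that band did. Between 45% and 50% GC 7 of 14 members fell, against 7.79% of the genes in the band, and at or below 45% GC 3 of 17 fell (COX6A1, ATP5MC3 and ATP5MPL), against 1.46%. Between 50% and 55% GC 1 of 5 fell, COX5B, against 26.6%.

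When the trend with GC content and gene length was fitted in each library and removed, 15 members were lower and none was higher, beside 5.88% and 4.53% of 14548 genes, and 13 of the 17 falls were kept. The median over the tested members was then -0.164, beside 0.002 for all genes. COX6A1 (-0.78, adjusted p = 0.0386), COX8A (-0.71, adjusted p = 0.0121), COX5B (-0.61, adjusted p = 0.0195), ATP5MC3 (-0.48, adjusted p = 0.00893), ATP5MC1 (-0.47, adjusted p = 0.0288), UQCRH (-0.35, adjusted p = 0.0288) and ATP5MF (-0.35, adjusted p = 0.0146) had the largest corrected falls among the called members. CYC1 was at -0.20 (adjusted p = 0.0296). UQCRC1, COX6B1, ATP5F1D and ATP5IF1 were no longer called, and UQCRB (-0.31, adjusted p = 0.0211) and COX6C (-0.24, adjusted p = 0.0483) were called lower. The correction also removes any change that goes with GC content for a biological reason.

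Most members are short, and 29 of the 44 have a longest coding part of at most 500 bases. Of these 12 fell and 1 rose, where 26.4% of nuclear protein-coding genes of that size fell and 14.2% rose. With coding length added to the correction 12 members were lower and 4 higher (UQCR11, COX7A1, COX7B and ATP5MD), beside 9.84% and 8.66% of 11306 genes, and the 3 ring genes, COX8A, COX5B, COX6A1, COX5A, COX4I1, ATP5MF, CYC1 and UQCRH kept their falls, with UQCRB as the twelfth. Of the 18 called members 7 were called in each of the 18 alternative settings: COX8A, COX5B, COX5A, COX4I1, ATP5MC1, ATP5MC3 and ATP5MF. Leaving out each library in turn, 12 of the 18 were called each time.

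**Figure D4:**
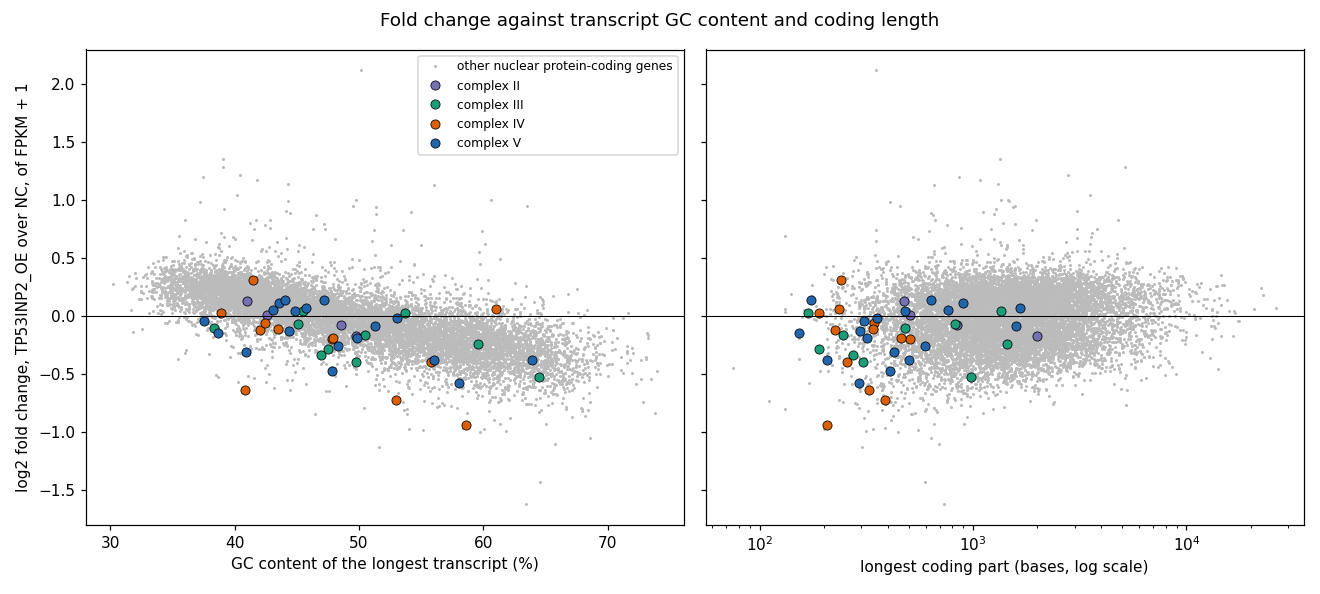
Log2 fold change (TP53INP2_OE over NC, FPKM + 1) against the GC content of the longest transcript of any type in % (left) and the longest coding part in bases on a log axis (right). Grey points are nuclear protein-coding genes and coloured points are the subunits of complexes II to V. The grey cloud falls from left to right in the GC panel (Spearman's rho -0.783), and COX6A1, at -0.63 and low GC content, lies below it.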

How the data were processed

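Trizol RNA went into libraries of the Illumina TruSeq RNA kit, per the labels' protocols. The authors deposited FPKM values for 60843 genes with gene name, position, length and type, per the file headers. Bowtie 0.12.2 and 2 builds, GRCh38 and mm8, appear in the submitters' processing notes without their roles. The read counter and its strand setting are not given in the sources used here. Of the gene IDs, 96.2% are in GENCODE release 29 (GRCh38), of which 92.8% have the same start or end, and 90.8% of gene lengths lie within 5% of the summed exon length.

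The product of FPKM and length was scaled so that its smallest value above 0 in a library equals 1 read. All values (100%) were then whole within 0.01 and were taken as reads. Libraries of a group differed by more than sampling noise (chi-square per degree of freedom 2.58 to 4.97 within groups and 13.6 to 33.0 between them). Each was counted as 1 replicate, although this variation does not show that the libraries came from separate cultures.

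Groups came from the sample titles. Values were taken as log2(FPKM + 1), which understates changes of low genes. Genes averaging 0.5 FPKM or more entered limma 3.58.1, run in R 4.3.3 (empirical Bayes with trend, two-sided, Benjamini-Hochberg over 14791 genes, threshold 0.05). The procedure was tried on simulated reads that held no trend with GC content. That trial therefore does not bear on the GC trend of these libraries. For the GC and length correction, natural splines (5 degrees of freedom) were fitted in each library to the difference from the gene's mean over libraries, on GC content of the longest GENCODE 29 transcript of any type, coding or not, and log2 gene length, and subtracted. Other alternatives were another pseudocount, filters, TPM, quantile normalization, voom on the reads, a replicate block and leaving out each library. Shared stretches are 50-base words of a member's longest protein-coding GENCODE 29 transcript that also occur in another searched gene. The search covered only genes whose symbols begin like those of the members, pseudogenes included, and not the rest of the transcriptome.

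The members and the gene lists were chosen with earlier results of these data known. Library values and tests are given for called members, the highest member of each complex and isoform families, and from other lists for up to 4 called genes with the largest change. SURF1 and MT-CO3 were added after their values were seen, to complete a count. Of the 50 members, 38 matched a RefSeq promoter, the first listed start being used. Protein sequences were not used here.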

Additional observations from a re-analysis of the deposited data

How the results depend on the processing

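The count of lower members, 17, stayed within 1.5 times under each setting except the replicate block with GC and length correction, where 8 were lower. Of the 17 falls themselves 7 were kept there, 11 with coding length in the correction (12 called), 12 with GC of the longest coding transcript (16 called), and 13 to 17 in the other settings that used all libraries. Leaving out each library gave 12 to 16 lower members. The median of tested members stayed below 0 throughout (-0.101 to -0.164, and -0.0883 to -0.149 leaving out each library). The count of members that rose, 1, was 0 with no filter, after GC and length correction, with GC of the longest coding transcript, with the replicate block and with the block plus correction, 2 with a filter of 5 FPKM, among protein-coding genes and with TPM, 3 under quantile normalization, 4 with coding length in the correction, and 0 to 3 leaving out each library. Replicate numbers did not pair the libraries (correlations of deviations 0.017, 0.0119 and 0.0107; not every library correlated best with its own number). With the replicate block, 16 of the 17 falls were kept, COX7B and ATP5MPL lost their calls and ATP5ME was called lower.

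Other pathway genes that rose, 8, were 2 with no filter, 5 under quantile normalization, 5 with the block, 0 with the block plus GC and length correction and 5 to 8 leaving out each library. Those that fell, 10, were 6 after GC and length correction, 5 with the block added, and 5 to 11 leaving out each library. Over all genes, 2430 higher and 2753 lower became 659 and 855 after GC and length correction, 979 and 1112 with coding length added, 955 and 1096 with GC of the longest coding transcript, 267 and 401 with the block plus correction, and 1454 to 2216 and 1811 to 2592 leaving out each library. Without NC replicate 1 the counts were lowest. The filter-free setting cost 5 members their calls (UQCR10, COX6A1, COX6B1, COX7B and ATP5IF1), and the cause was not tested.

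Some log2 fold changes turned sign. After GC and length correction, with or without the replicate block, these were ATP5PB (-0.0539), COX7C (-0.146), UQCRC1 (0.00708), SDHD (-0.0208), UQCRC2 (-0.0135), ATP5PF (0.098), ATP5PD (-0.024) and SDHC (-0.134). With coding length added they were ATP5PB (-0.0538), COX7C (-0.0301), UQCRC1 (0.0086), UQCRQ (0.00815), UQCRC2 (-0.027), ATP5PF (0.176) and SDHC (-0.0412). With GC of the longest coding transcript they were ATP5F1B (0.0144), ATP5PB (-0.0621), ATP5F1A (-0.0137), ATP5F1D (0.0226), COX7C (-0.139), UQCRC1 (0.0163), SDHD (-0.0211), UQCRC2 (-0.0367), ATP5PF (0.125), ATP5PD (-0.0301) and SDHC (-0.146). Under quantile normalization they were ATP5F1B (0.0711) and ATP5PF (0.0104). Leaving out each library, the ranges crossed 0 for COX7C (-0.0214 to 0.124), COX7A2 (-0.113 to 0.0248), ATP5PF (-0.0817 to 0.0496), ATP5PD (-0.0467 to 0.105), UQCR11 (-0.0535 to 0.0753), SDHC (-0.0176 to 0.0524), ATP5MG (-0.0947 to 0.0247) and COX7A1 (-0.0506 to 0.168). Of these genes UQCRC1 and ATP5F1D were called members. The cause was not tested. Depth limits COX7A1, ATP5ME and UQCRHL, with at most 110 reads in a library.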

Other observations

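Pseudogene copies of the members, of any pseudogene type, were read separately, because respiratory subunit genes have many. Among pseudogene rows named after a member, those of SDHA held the most reads relative to their parent (88.2% of its reads), followed by COX6A1 (9.20%), ATP5PD (2.05%) and UQCRFS1 (2.0%). The SDHA copy SDHAP1 was at 4.89, 4.14 and 5.46 FPKM in NC and at 3.83, 6.01 and 4.51 FPKM in TP53INP2_OE, with overlap (log2 fold change -0.02, adjusted p = 0.922). COX6A1P2 was at 7.06, 9.76 and 8.67 FPKM in NC and at 8.61, 10.1 and 4.86 FPKM in TP53INP2_OE (-0.14, adjusted p = 0.679), while COX6A1 fell with no overlap. The 17 pseudogenes of COX6C together held 1.93% as many reads as COX6C. COX8A, COX5B, CYC1, COX4I1, ATP5F1D and ATP5MC3 shared no 50-base stretch with another of the genes searched. Only genes with respiratory subunit symbols and their pseudogenes were searched.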
